A study of Homo sapiens with 15 samples.

Results

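The comparison concerned TF-1 cells carrying the base-edited IDH2R172K genotype, set against unedited TF-1 cells, called Parental in the labels. TF-1 is a human erythroleukaemia cell line of CD34-positive myeloid progenitor type that normally depends on GM-CSF, a myeloid growth factor. IDH2R172K cells were cultured without GM-CSF and Parental cells with 2 ng/ml of it, so genotype and medium changed together and their contributions cannot be told apart. Poly(A) RNA was sequenced in 3 IDH2R172K libraries and 3 Parental libraries, 6 of the 15 in the series. The other 9 came from 3 further base-edited lines, IDH1R132H, IDH2R140Q and IDH2R140W, also kept without GM-CSF, which allowed IDH2R172K to be compared with cells in its own medium. The labels do not say whether a line is a single clone, nor whether the replicates came from cultures grown apart. The p-values therefore reflect variation among 3 libraries per line, and some or all of it may be technical. All 14881 gene symbols with at least 1 TPM (transcripts scaled for length and library total) in at least 3 of the 15 libraries entered the comparison. Calls of a change needed both a limma p under 0.05 after Benjamini-Hochberg adjustment and a difference of at least 1 on the log2(TPM + 1) scale, which is 2-fold for genes well above 1 TPM and understates the change of low genes.

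IDH2 encodes the mitochondrial isocitrate dehydrogenase that turns isocitrate into 2-oxoglutarate and makes NADPH, and IDH1 encodes the cytosolic enzyme. Mutation of the arginine at this position gives an enzyme that reduces 2-oxoglutarate to 2-hydroxyglutarate, which competes with 2-oxoglutarate at the TET enzymes, the JmjC histone demethylases and other dioxygenases. The mutation recurs in acute myeloid leukaemia, where it is known for blocked differentiation of myeloid progenitors.

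Between 12796 and 13792 symbols per library reached 1 TPM. Log values correlated across genes at 0.977 to 0.985 within the IDH2R172K libraries and 0.974 to 0.985 within the Parental libraries, against 0.937 to 0.956 between the groups. Cytosolic ribosomal protein genes took 15.4%, 15.2% and 15.02% of TPM in IDH2R172K libraries, against 16.9%, 21.2% and 17.9% in Parental libraries (replicates 1, 2 and 3 of each). The part of this share in the results was not tested. Counts without Parental replicate 2, where it was highest, are given beside several lists, and named genes whose call was lost without it are marked. Some genes that every cell uses, such as PGK1, TPI1 and RPS18, were listed at 0 in all 15 libraries, as were GATA1 and the receptor chains CSF2RA and IL3RA. All of these sit on more than 1 row of the table, so a 0 may be a failed estimate and these genes were not compared.

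IDH2 itself was lower in the edited line. It had 33.4, 32.02 and 29.97 TPM in IDH2R172K libraries, against 52.2, 49.9 and 56.2 TPM in Parental libraries, and the groups did not overlap. The log2 difference was -0.71 ± 0.08 (SE), with a limma adjusted p of 1.06e-05, short of the 2-fold needed for a call. IDH2 (chromosome 15, 90083045 to 90102504, hg38) was also -0.80 ± 0.07 on the log2 scale relative to the mean of the other edited lines, which averaged 52.3, 74.7 and 45.4 TPM in IDH1R132H, IDH2R140Q and IDH2R140W. TPM carries no allele, so these values check neither the edit nor its share of transcripts. IDH1 had 36.6, 35.5 and 40.8 TPM in IDH2R172K libraries and 66.3, 70.7 and 73.9 TPM in Parental libraries, a log2 difference of -0.88 ± 0.09 with a limma adjusted p of 5.79e-06. Relative to the other edited lines the difference of IDH1 was -0.17 ± 0.08, with a limma adjusted p of 0.115.

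Of all symbols, 1386 changed between IDH2R172K and Parental cells (9.31%), 946 higher (6.36%) and 440 lower (2.96%). In 47.9% of symbols the 3 libraries of one group lay wholly outside the other, and the median symbol was 0.13 higher on the log2 scale. Scaling each library by its median ratio removed this shift and gave 762 higher and 627 lower, and quantile normalisation gave 708 higher and 640 lower. Exact permutation of 3 libraries against 3 cannot give a two-sided p below 0.10, so calls rest on the spread shared over genes and groups in limma.

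The largest rise was that of HDC, histidine decarboxylase, which makes histamine in mast cells and basophils. HDC had 109, 107 and 113 TPM in IDH2R172K libraries, against 1.82, 0.67 and 1.38 TPM in Parental libraries. Its log2 difference was 5.63 ± 0.22, with a limma adjusted p of 3.55e-10, and no other edited line averaged above 5.70 TPM. CTSG, encoding cathepsin G, a serine protease of myeloid granules, had 56.95, 60.2 and 55.97 TPM in IDH2R172K libraries and 0.43, 0.97 and 0 TPM in Parental libraries (5.38 ± 0.20). HSH2D, an SH2-domain adaptor of blood cells, had 92.8, 93.4 and 90.6 TPM in IDH2R172K libraries and 1.61, 1.28 and 2.79 TPM in Parental libraries (5.04 ± 0.19). Both were near silent in Parental cells, but CTSG was also expressed in the other edited lines, at 32.5, 11 and 23.97 TPM in IDH1R132H, IDH2R140Q and IDH2R140W, whereas HSH2D stayed at 0.06, 0.26 and 0.48 TPM there. TMPRSS15, the gut protease that activates trypsinogen, had 48.6, 50.7 and 50.4 TPM in IDH2R172K libraries and 1.13, 0.69 and 0.59 TPM in Parental libraries (4.83 ± 0.14). The long non-coding RNA LINC00922 had 24.3, 21.8 and 22.5 TPM in IDH2R172K libraries and 0.31, 0.09 and 0.10 TPM in Parental libraries (4.36 ± 0.14). Both genes were at or below 0.30 TPM on average in each other edited line. The clone-named transcript CTA-254O6.1 had 41.1, 46.5 and 42.5 TPM in IDH2R172K libraries and was listed at 0 in the 3 Parental libraries, so no fold is given. A further clone-named transcript, RP11-433M22.2, had 92.6, 95.4 and 78.3 TPM in IDH2R172K libraries and 0.75, 1.25 and 1.56 TPM in Parental libraries (5.37 ± 0.18).

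A further 5 of the 12 largest rises were those of SELP, CDH5, BMPER, CD40 and RYR2. SELP, P-selectin of platelets and endothelium, had 48.95, 52.4 and 41.7 TPM in IDH2R172K libraries and 2.52, 1.43 and 2.04 TPM in Parental libraries (4.03 ± 0.16). CDH5, the cadherin of endothelial junctions, had 24.5, 24.5 and 24.4 TPM in IDH2R172K libraries and 0.92, 0.51 and 0.81 TPM in Parental libraries (3.87 ± 0.16). BMPER, a secreted BMP-binding protein, had 40.9, 38.1 and 36.6 TPM in IDH2R172K libraries and 1.27, 0.28 and 0.34 TPM in Parental libraries (4.65 ± 0.19). All 3 were expressed in some of the other edited lines, BMPER up to 44.3 TPM in IDH1R132H. The TNF receptor family member CD40 had 43.4, 45.9 and 50.9 TPM in IDH2R172K libraries and 2.20, 1.93 and 2.76 TPM in Parental libraries (3.86 ± 0.13). CD40 was above Parental in the other edited lines too, averaging 28.1, 34.7 and 6.04 TPM in IDH1R132H, IDH2R140Q and IDH2R140W. RYR2, the ryanodine receptor best known in heart muscle, was the least even of the 12, at 6.46, 14.7 and 31.2 TPM in IDH2R172K libraries and 0.01, 0.01 and 0 TPM in Parental libraries. Its log2 difference was 3.95 ± 0.42, with a limma adjusted p of 6.33e-06. RYR2 averaged 1.52, 8.92 and 0.54 TPM in IDH1R132H, IDH2R140Q and IDH2R140W.

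**Figure D1:**
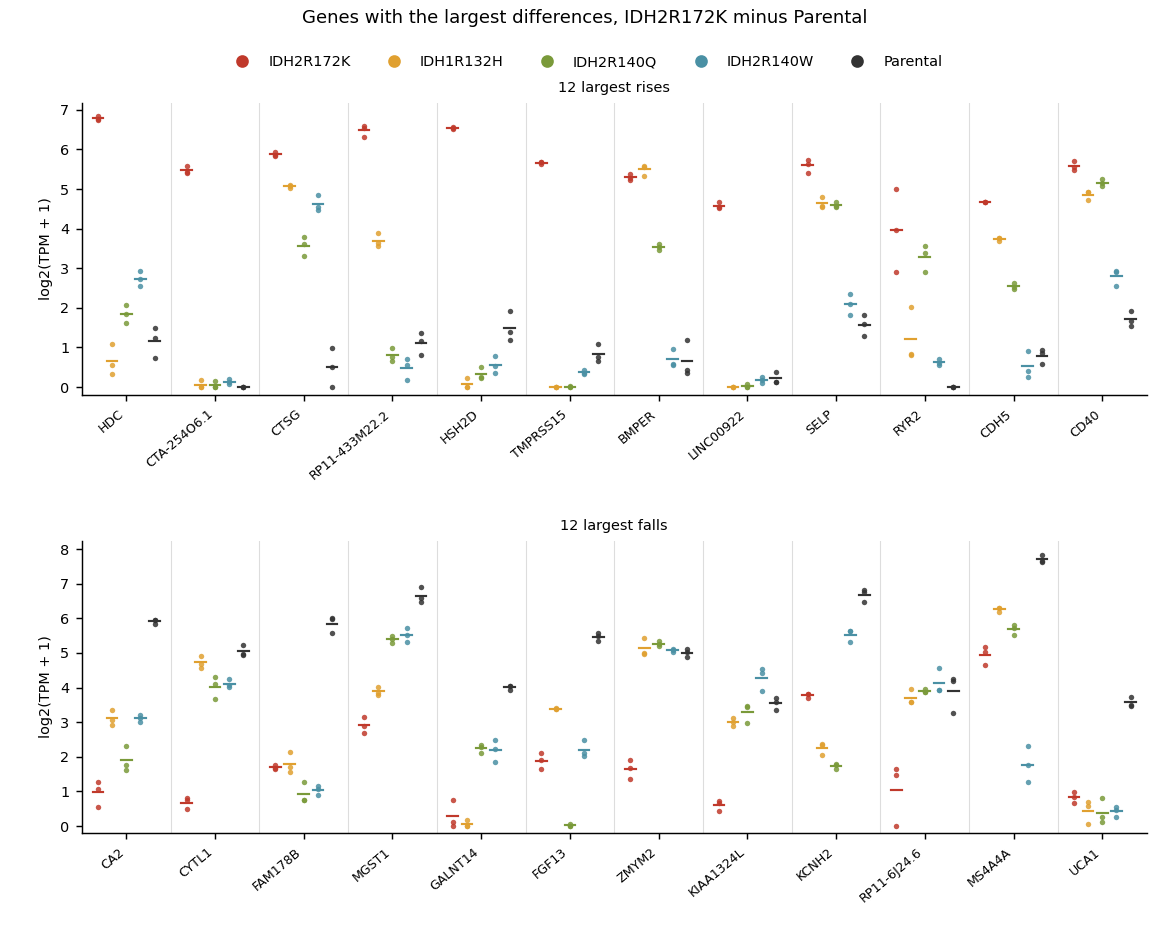
Expression on the log2(TPM + 1) scale (vertical axis) of the 12 genes with the largest rises and the 12 with the largest falls in IDH2R172K relative to Parental cells, with 1 point per library and a bar at the mean of the 3 libraries of each line. HDC, HSH2D, TMPRSS15, LINC00922 and CTA-254O6.1 were higher in the 3 IDH2R172K libraries than in all 12 others, while ZMYM2, CYTL1 and KIAA1324L were lower in them than in all 12 others.

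The largest fall was that of CA2, carbonic anhydrase II, an enzyme of red cells and osteoclasts. CA2 had 1.44, 0.47 and 1.11 TPM in IDH2R172K libraries, against 60.6, 60.7 and 56.2 TPM in Parental libraries. Its log2 difference was -4.94 ± 0.20, with a limma adjusted p of 6.81e-10, and it was also low in the other edited lines, at 7.73, 2.82 and 7.65 TPM in IDH1R132H, IDH2R140Q and IDH2R140W. CYTL1, a secreted protein first found in CD34-positive cells, had 0.41, 0.68 and 0.74 TPM in IDH2R172K libraries and 30.4, 36.7 and 29.6 TPM in Parental libraries (-4.37 ± 0.16). ZMYM2 (chromosome 13, 19958670 to 20091829, hg38), a zinc finger protein of transcriptional repressor complexes, had 1.55, 2.77 and 2.22 TPM in IDH2R172K libraries and 28.7, 31.5 and 33.8 TPM in Parental libraries (-3.36 ± 0.15). ZMYM2 was near its Parental level in the other lines, which averaged 34.6, 37.6 and 32.6 TPM, and CYTL1 averaged 25.6, 15.6 and 16.3 TPM in the same lines. MGST1, a microsomal glutathione transferase, had 6.36, 5.49 and 7.81 TPM in IDH2R172K libraries and 88.2, 119 and 94.3 TPM in Parental libraries (-3.75 ± 0.14). KIAA1324L had 0.60, 0.34 and 0.66 TPM in IDH2R172K libraries and 11.1, 9.20 and 12.1 TPM in Parental libraries (-2.94 ± 0.18). The clone-named RP11-6J24.6 had 0, 1.78 and 2.12 TPM in IDH2R172K libraries and 17.2, 18.04 and 8.71 TPM in Parental libraries (-2.87 ± 0.36).

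Several of the remaining large falls were found in the other edited lines too. FAM178B had 2.37, 2.22 and 2.12 TPM in IDH2R172K libraries and 62.5, 46.4 and 62.8 TPM in Parental libraries (-4.16 ± 0.19). KCNH2, the voltage-gated potassium channel also called hERG, had 13.2, 13.1 and 12.1 TPM in IDH2R172K libraries and 112, 87.6 and 107 TPM in Parental libraries (-2.90 ± 0.13). MS4A4A, a membrane protein of macrophages and mast cells, had 24.1, 31.6 and 34.9 TPM in IDH2R172K libraries and 196, 228 and 199 TPM in Parental libraries (-2.75 ± 0.20). All 3 had at least 1 other edited line that averaged below IDH2R172K, for example MS4A4A at 2.58 TPM in IDH2R140W. FGF13, of the intracellular FGF homologous factors, had 3.28, 2.74 and 2.15 TPM in IDH2R172K libraries and 43.6, 39.7 and 46.6 TPM in Parental libraries (-3.58 ± 0.15). GALNT14, which starts mucin-type O-glycosylation, had 0, 0.08 and 0.67 TPM in IDH2R172K libraries and 15.5, 15.5 and 14.2 TPM in Parental libraries (-3.72 ± 0.20). FGF13 averaged 9.44, 0.017 and 3.65 TPM and GALNT14 0.047, 3.76 and 3.64 TPM in IDH1R132H, IDH2R140Q and IDH2R140W, so for each of them too 1 line lay below IDH2R172K. Relative to the mean of these lines GALNT14 was lower (-1.22 ± 0.17), while FAM178B (0.44 ± 0.15), KCNH2 (0.61 ± 0.10), MS4A4A (0.37 ± 0.16) and FGF13 (0.02 ± 0.12) were not called. The non-coding RNA UCA1 had 0.60, 0.79 and 0.96 TPM in IDH2R172K libraries and 10.3, 10.1 and 12.3 TPM in Parental libraries (-2.74 ± 0.21). Groups did not overlap in any of the 24 genes named for the largest changes, which was a condition for naming them.

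Against the mean of the 3 other edited lines, where the medium was the same, 711 symbols changed (4.78%), 374 higher (2.51%) and 337 lower (2.26%), and the median symbol did not shift (-0.005). The 8 largest rises in this comparison included HSH2D (6.22 ± 0.15), TMPRSS15 (5.54 ± 0.11), CTA-254O6.1, HDC (5.04 ± 0.18), RP11-433M22.2 (4.82 ± 0.15) and LINC00922 (4.51 ± 0.11), which rose relative to Parental cells too. PTPRCAP, a protein bound to the CD45 phosphatase of leukocytes, had 64.7, 61.5 and 65.5 TPM in IDH2R172K libraries, against means of 1.90, 1.03 and 23.5 TPM in IDH1R132H, IDH2R140Q and IDH2R140W and 25.2 TPM in Parental cells (3.64 ± 0.12 relative to the other edited lines). AC004791.2 was the remaining one (3.80 ± 0.30). The 8 largest falls included CYTL1 (-3.61 ± 0.13), ZMYM2 (-3.51 ± 0.12), KIAA1324L (-2.92 ± 0.15) and RP11-6J24.6 (-2.88 ± 0.30). LRRN3, a leucine-rich repeat membrane protein, had 1.98, 2.45 and 2.01 TPM in IDH2R172K libraries, against means of 22.97, 28.96 and 27.05 TPM in the other edited lines and 10.9 TPM in Parental cells (-3.11 ± 0.09). NCK2, an adaptor of tyrosine kinase signalling, had 1.37, 1.62 and 0.83 TPM in IDH2R172K libraries, against means of 29.1, 24.3 and 7.51 TPM in the other edited lines (-3.04 ± 0.17). The protease BACE2 (-2.89 ± 0.17) and STXBP6 (-2.78 ± 0.14), a binder of vesicle fusion proteins, completed the 8.

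Several red cell genes were higher in IDH2R172K than in the other edited lines while lying near their Parental level. Of 9 globin genes tested, 2 fell relative to Parental cells, 0 rose, and the median difference was -0.63. Relative to the mean of the other edited lines 6 of 9 rose, against 2.51% of all symbols, with a median of 1.92. IDH2R140W averaged above IDH2R172K in HBB (113 against 41.6 TPM), HBD (198 against 66.8 TPM) and HBQ1 (29.02 against 24.3 TPM). The remaining members averaged lower in IDH2R140W than in IDH2R172K. HBG2, a fetal globin chain, had 607, 692 and 728 TPM in IDH2R172K libraries, against 706, 1134 and 801 TPM in Parental libraries, with overlapping ranges (-0.36 ± 0.20, limma adjusted p = 0.167). HBG2 averaged 23.98, 6.07 and 133 TPM in IDH1R132H, IDH2R140Q and IDH2R140W, a log2 difference of 4.57 ± 0.16 with a limma adjusted p of 1.11e-10. HBG1 and HBG2 are near-identical copies, as are HBA1 and HBA2, so the split of reads within each pair is uncertain. HBG1 likewise had 105, 106 and 119 TPM in IDH2R172K libraries and 110.3, 199.7 and 122 TPM in Parental libraries, and was 4.40 ± 0.19 above the other edited lines on the log2 scale. The members that fell were the adult alpha chains HBA1, with 406, 378 and 376 TPM in IDH2R172K libraries and 842, 1091 and 890.1 TPM in Parental libraries (-1.27 ± 0.09), and HBA2 (-1.17 ± 0.13). The embryonic chain HBZ had 65.9, 64.5 and 71.1 TPM in IDH2R172K libraries and 101, 117 and 95.5 TPM in Parental libraries (-0.63 ± 0.20), without reaching 2-fold. At an unadjusted p under 0.05 in limma, 1 globin was higher and 6 were lower.

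Of 15 haem synthesis genes, 1 fell and 0 rose relative to Parental cells (2 higher and 7 lower at an unadjusted p under 0.05 in limma), and 2 rose relative to the other edited lines. ALAS2, the erythroid first enzyme of haem synthesis, had 23.4, 27.1 and 26.1 TPM in IDH2R172K libraries, against 22.3, 16.96 and 19.6 TPM in Parental libraries, and averaged 2.37, 3.42 and 6.82 TPM in the other edited lines (2.46 ± 0.18 relative to their mean). TMEM14C, which carries a haem precursor into mitochondria, fell relative to Parental cells (-1.06 ± 0.10), a call lost without Parental replicate 2. Of 25 red cell membrane and iron uptake genes, 3 rose and 1 fell relative to Parental cells, and 9 rose and 0 fell relative to the other edited lines. Of all symbols, 6.36% rose and 2.96% fell relative to Parental cells, and 2.51% rose relative to the other edited lines. GYPB, glycophorin B, had 42.2, 42.5 and 47.7 TPM in IDH2R172K libraries and 9.97, 15.8 and 16.9 TPM in Parental libraries (1.60 ± 0.20). Its copy GYPE (1.29 ± 0.12) and EPB42, protein 4.2 of the red cell skeleton (1.40 ± 0.18), were the other rises, and the water channel AQP1 fell (-1.23 ± 0.21). Glycophorin genes share sequence, so the split of reads between them is uncertain. CA1, the main carbonic anhydrase of red cells, had 121, 105 and 128 TPM in IDH2R172K libraries and 135, 123 and 147 TPM in Parental libraries, while CA2 fell as given above. CA1 was 2.58 ± 0.08 above the other edited lines, which averaged 10.4, 11.2 and 54.9 TPM. Of 17 erythroid transcription factors, BCL11A, a repressor of fetal globin, was the 1 that changed (-1.12 ± 0.20), at 1.99, 2.45 and 1.59 TPM in IDH2R172K libraries and 5.03, 7.55 and 4.31 TPM in Parental libraries. The BCL11A call was lost without Parental replicate 2. KLF1, the erythroid activator, had 142, 133 and 144 TPM in IDH2R172K libraries and 139, 137 and 141 TPM in Parental libraries.

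Megakaryocyte and platelet genes rose in 12 of 23 tested and fell in 0 relative to Parental cells, against 6.36% of all symbols higher. The rises counted 10 without Parental replicate 2 and 10 under median-ratio scaling. Their median difference was 1.06, and 2 rose and 1 fell relative to the other edited lines. F13A1, a subunit of coagulation factor XIII, had 47, 45.9 and 41.9 TPM in IDH2R172K libraries and 4.84, 2.60 and 3.50 TPM in Parental libraries (3.33 ± 0.16). ITGB3, the beta chain of the platelet fibrinogen receptor, had 32.5, 33.5 and 34.2 TPM in IDH2R172K libraries and 6.68, 3.56 and 7.24 TPM in Parental libraries (2.38 ± 0.23), summed over the rows of that symbol. RAB27B, a granule-docking GTPase, rose by 2.32 ± 0.21, and SELP is given above. The regulator RUNX1 had 129, 140.1 and 128 TPM in IDH2R172K libraries and 51.3, 25.4 and 41.3 TPM in Parental libraries (1.78 ± 0.26). ITGA2B, the alpha chain of the same receptor, had 441, 449 and 457 TPM in IDH2R172K libraries and 296, 282 and 296 TPM in Parental libraries (0.62 ± 0.05), below 2-fold. Of the defining platelet genes PF4 was listed at 0 throughout, and PPBP was low, at 1.79, 4.06 and 3.48 TPM in IDH2R172K libraries and 0.55, 0 and 0.25 TPM in Parental libraries. GP9 averaged 9.15 TPM in IDH2R172K and 13.7 TPM in Parental libraries (-0.56). TBXA2R (-0.69) and PLEK (-0.45) were lower too, all 3 below 2-fold. At an unadjusted p under 0.05 in limma, 17 members were higher and 3 lower.

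Mast cell, basophil and eosinophil genes moved in both directions, 5 of 19 rising and 3 falling relative to Parental cells, and 6 rising and 4 falling relative to the other edited lines. Of all symbols, 6.36% rose and 2.96% fell relative to Parental cells, and 2.51% rose and 2.26% fell relative to the other edited lines. Besides HDC, CLC, the Charcot-Leyden crystal protein of eosinophils and basophils, had 6.49, 10.6 and 5.20 TPM in IDH2R172K libraries and 0.21, 0 and 0 TPM in Parental libraries (2.93 ± 0.24). The eotaxin receptor CCR3 had 10.2, 9.39 and 12.6 TPM in IDH2R172K libraries and 0.31, 0.96 and 0.71 TPM in Parental libraries (2.83 ± 0.26), and CCR3 was 2.69 ± 0.21 above the other edited lines. FCER1A, the IgE receptor alpha chain, had 245, 248 and 252 TPM in IDH2R172K libraries and 76.5, 86.01 and 70.3 TPM in Parental libraries (1.67 ± 0.07), but was higher still in the other edited lines, at 298, 637 and 319 TPM. The prostaglandin D2 synthase HPGDS rose by 1.22 ± 0.17. PRG2, major basic protein of eosinophil granules, had 64.1, 96.9 and 75.1 TPM in IDH2R172K libraries and 209, 451 and 268 TPM in Parental libraries (-1.91 ± 0.27), and its relative PRG3 (-1.38 ± 0.21) and the stem cell factor receptor KIT (-1.19 ± 0.18) fell with it. Tryptase TPSB2 had 3.82, 3.36 and 3.42 TPM in IDH2R172K libraries and 2.73, 3.13 and 2.44 TPM in Parental libraries, and carboxypeptidase CPA3 averaged 1.23 TPM in IDH2R172K libraries and 0.40 TPM in Parental libraries.

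Among 6 tested neutrophil granule genes, CTSG and LCN2 rose and GFI1, a repressor needed for neutrophil formation, fell (-1.42 ± 0.15). LCN2, lipocalin 2, had 19.2, 19.8 and 16.4 TPM in IDH2R172K libraries and 4.24, 8.01 and 9.90 TPM in Parental libraries (1.28 ± 0.23), a call lost without Parental replicate 1. The granule proteases ELANE and PRTN3 were listed at 0 in the 3 IDH2R172K libraries, and MPO averaged 1.45 TPM there and 1.81 TPM in Parental libraries. Of 15 monocyte and macrophage genes, 3 rose and 0 fell relative to Parental cells, against 6.36% higher and 2.96% lower of all symbols. At an unadjusted p under 0.05 in limma, 12 were higher and 1 lower. The CSF-1 receptor CSF1R had 20.2, 20.4 and 18.2 TPM in IDH2R172K libraries and 2.30, 1.73 and 2.84 TPM in Parental libraries (2.66 ± 0.24), and was 2.48 ± 0.20 above the other edited lines. TYROBP, the signalling adaptor DAP12, had 594, 572 and 608 TPM in IDH2R172K libraries and 219, 204 and 233 TPM in Parental libraries (1.44 ± 0.07), and the integrin ITGAX rose by 1.19 ± 0.21. CD14 reached at most 0.27 TPM in IDH2R172K libraries and 0.17 TPM in Parental libraries, and S100A8 was listed at 0 in both. LYZ averaged 89.95 TPM in IDH2R172K libraries and 120 TPM in Parental libraries (-0.41, below 2-fold). Of 13 stem and progenitor genes, 4 rose and 2 fell, against the same shares of all symbols (6.36% and 2.96%). CD34, the progenitor surface marker, had 542, 512 and 544 TPM in IDH2R172K libraries and 177, 118 and 163 TPM in Parental libraries (1.82 ± 0.12), and the other edited lines averaged 512, 485 and 276 TPM. ERG (1.36 ± 0.23), MEIS1 (1.75 ± 0.22) and CD38 (1.48 ± 0.28) were the other rises. MLLT3, a factor of stem cell maintenance, had 31.5, 32.6 and 37.8 TPM in IDH2R172K libraries and 83.3, 80.9 and 84.6 TPM in Parental libraries (-1.27 ± 0.08), and KIT fell as given above.

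Some markers of a myeloid progenitor line were high in both groups: CD34 as given above, CD33 at 262 TPM in IDH2R172K and 210.1 TPM in Parental cells, and the shared cytokine receptor chain CSF2RB at 120.1 TPM in IDH2R172K and 66.6 TPM in Parental cells. KIT, also looked for as a marker of TF-1, was low, at 3.12 TPM in IDH2R172K and 8.50 TPM in Parental cells. The markers CSF2RA and IL3RA were listed at 0, as given above, and could not be judged. Markers of other cell types were mostly at or near 0. Of 24 lymphoid genes 9 were tested and 1 rose, NKG7 (1.55 ± 0.14), against 6.36% higher of all symbols. The list summed to 91.7 to 102 TPM in IDH2R172K libraries and 106 to 109 TPM in Parental libraries. CD3D, a T cell receptor chain, averaged 52.7 TPM in IDH2R172K and 68.4 TPM in Parental libraries. CD79A and MS4A1 of B cells and COL1A2 and DCN of fibroblasts were listed at 0 in both groups, while the keratin KRT18 averaged 479.9 TPM in IDH2R172K and 522 TPM in Parental libraries. In bulk RNA, fewer cells of a type and less RNA per cell cannot be told apart.

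**Figure D2:**
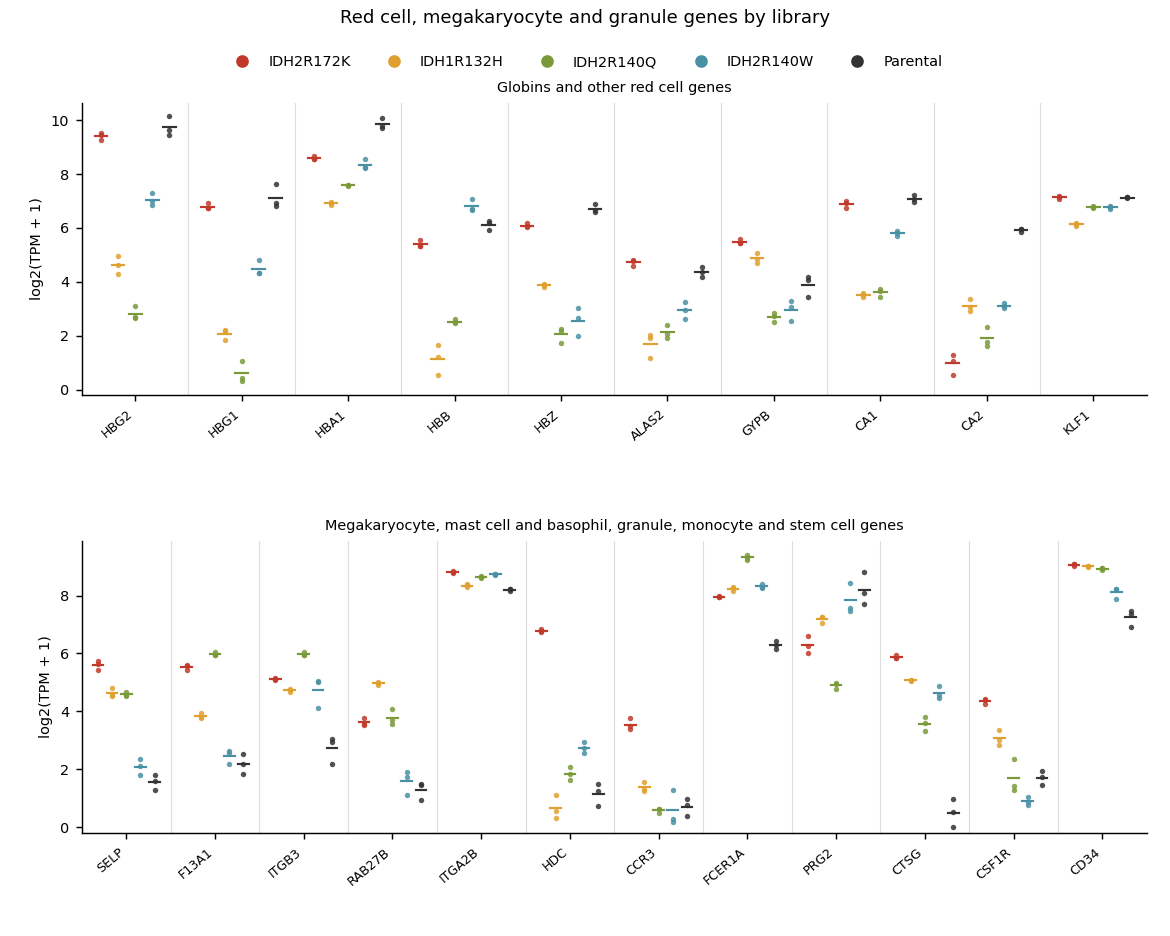
Expression on the log2(TPM + 1) scale (vertical axis) of red cell genes (top) and of megakaryocyte, mast cell and basophil, granule, monocyte and stem cell genes (bottom), with 1 point per library and a bar at each line's mean. HBG2 and CA1 lay near the Parental level in IDH2R172K libraries and lower in the other 3 edited lines, whereas CD34 was above its Parental libraries in all 4 edited lines.

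Antigen presentation genes of HLA class II rose in 8 of 10 tested members and fell in 1, with a median difference of 1.52. Of all symbols, 6.36% rose and 2.96% fell. CD74, the class II invariant chain, had 484, 489 and 471 TPM in IDH2R172K libraries and 84.9, 65 and 74.8 TPM in Parental libraries (2.68 ± 0.08, limma adjusted p = 4.77e-11). CIITA, the class II transactivator, had 8.47, 8.52 and 7.44 TPM in IDH2R172K libraries and 2.19, 1.86 and 3.71 TPM in Parental libraries (1.38 ± 0.19). The lines differed widely in CD74, which averaged 39.9, 727 and 131 TPM in IDH1R132H, IDH2R140Q and IDH2R140W. HLA-DRB5 rose by 2.79 ± 0.19, and HLA-DQA1 (2.89 ± 0.13) and HLA-DRA (2.65 ± 0.16), each summed over several rows, rose too. With symbols of more than 1 row left out, 3 class II genes rose (CD74, CIITA and HLA-DRB5). IFI30, a lysosomal thiol reductase used in class II presentation, had 40.05, 37.7 and 36.1 TPM in IDH2R172K libraries and 80.7, 83.1 and 85.8 TPM in Parental libraries, the 1 fall (-1.11 ± 0.07). Relative to the other edited lines 4 of the 10 rose and 0 fell, against 2.51% higher of all symbols. Of 9 class I presentation genes, 3 rose and 0 fell: HLA-B (1.92 ± 0.15), HLA-C (1.09 ± 0.09) and NLRC5, the class I transactivator (1.45 ± 0.19). The HLA-C call was lost under median-ratio scaling and quantile normalisation, and the class I rises counted 1 to 4 over all settings. Relative to the other edited lines 0 of the 9 were called.

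Interferon-stimulated genes rose in 14 of 50 and fell in 1, with a median difference of 0.57, against 6.36% higher and 2.96% lower of all symbols. Without Parental replicate 2, 11 rose and 2 fell. IFI6, a mitochondrial protein induced by type I interferon, had 149.6, 146 and 149 TPM in IDH2R172K libraries and 32.8, 39.7 and 36.7 TPM in Parental libraries (2.00 ± 0.08). OAS3, a sensor of double-stranded RNA, had 5.66, 6.51 and 5.32 TPM in IDH2R172K libraries and 0.90, 0.38 and 0.56 TPM in Parental libraries (2.09 ± 0.24), and OAS1, at 6.44, 5.51 and 3.80 TPM in IDH2R172K libraries, was listed at 0 in Parental libraries. TRIM22 rose by 1.63 ± 0.25. EPSTI1 had 11.8, 10.1 and 11.03 TPM in IDH2R172K libraries and 34.3, 27.7 and 29.5 TPM in Parental libraries (-1.39 ± 0.13) and was the 1 that fell. Relative to the other edited lines 1 rose and 3 fell, and IFI6 averaged 123, 417 and 262 TPM in IDH1R132H, IDH2R140Q and IDH2R140W. Of 12 sensors of nucleic acids, IFI16 (1.41 ± 0.15) and IFIH1 (1.204 ± 0.13) rose.

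Several genes of the amino acid response fell. ATF4 is a transcription factor that is translated when amino acids are short or the endoplasmic reticulum is stressed, and it binds a composite element in the promoters of amino acid synthesis and transport genes. Of 26 genes of this list tested, 7 fell and 0 rose relative to Parental cells, against 2.96% lower of all symbols, with a median difference of -0.39. Relative to the other edited lines 9 fell and 0 rose, against 2.26% lower of all symbols, with a median of -0.63. At an unadjusted p under 0.05 in limma, 4 were higher and 14 lower relative to Parental cells. The promoters of the 2 fallen members whose RefSeq window (GRCh38.p14) held the letters TGATGNAA, or TTNCATCA on the opposite strand, are shown on the gene's strand for the 250 bases before the start site, with the match in capitals. ASNS, asparagine synthetase, lies on the minus strand at chr7:97872409-97872658, with a match that begins at position -68. CHAC1, which degrades glutathione, lies on the plus strand at chr15:40953221-40953470, with a match that begins at position -209 and reads on the opposite strand.
ASNS: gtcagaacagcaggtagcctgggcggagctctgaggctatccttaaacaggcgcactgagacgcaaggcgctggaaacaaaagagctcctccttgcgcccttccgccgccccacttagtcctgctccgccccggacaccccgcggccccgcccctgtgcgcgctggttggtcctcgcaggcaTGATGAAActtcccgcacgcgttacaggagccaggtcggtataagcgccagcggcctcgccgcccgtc
CHAC1: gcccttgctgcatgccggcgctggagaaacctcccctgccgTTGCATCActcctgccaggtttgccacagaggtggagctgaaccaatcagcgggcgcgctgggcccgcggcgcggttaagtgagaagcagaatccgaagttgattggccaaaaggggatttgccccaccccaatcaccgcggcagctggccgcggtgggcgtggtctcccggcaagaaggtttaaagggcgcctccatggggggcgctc
The letters, sought on both strands, occurred in 3.62% of all 35116 promoter windows of 300 bases. They occurred in 9 of 42 windows (21.4%) of this list. Counted by gene, 9 of the 25 list members with a window held them, and 2 of the 6 fallen members among these 25.

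DDIT4, an inhibitor of mTORC1 induced by stress, had 15.5, 15.8 and 12.4 TPM in IDH2R172K libraries and 108, 101 and 97.4 TPM in Parental libraries. Its log2 difference was -2.74 ± 0.08, with a limma adjusted p of 4.77e-11, and it averaged 160.2, 37.2 and 54.3 TPM in IDH1R132H, IDH2R140Q and IDH2R140W. CHAC1 had 2.71, 1.48 and 1.78 TPM in IDH2R172K libraries and 14.04, 13.5 and 12.8 TPM in Parental libraries (-2.29 ± 0.14). ASNS had 9.63, 9.65 and 8.84 TPM in IDH2R172K libraries and 38.7, 40 and 39.3 TPM in Parental libraries (-1.96 ± 0.09), and the other edited lines held 32.4, 30.8 and 30.99 TPM. CTH, which makes cysteine from cystathionine, had 3.63, 4 and 3.25 TPM in IDH2R172K libraries and 18.5, 15 and 18.4 TPM in Parental libraries (-1.98 ± 0.14), and CBS, the enzyme before it, fell too (-1.42 ± 0.13). SLC7A11, the cystine importer, had 0.48, 0.98 and 1.53 TPM in IDH2R172K libraries and 4.39, 3.29 and 4.73 TPM in Parental libraries (-1.39 ± 0.19). No IDH2R172K library overlapped the Parental range in any of these genes. ATF4 itself was at 227, 247 and 243 TPM in IDH2R172K libraries and 414, 417 and 409 TPM in Parental libraries (-0.79 ± 0.05), and DDIT3 had 16.4, 13.3 and 15.2 TPM in IDH2R172K libraries and 7.40, 10 and 7.47 TPM in Parental libraries (0.79 ± 0.11).

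In the list of serine synthesis and one-carbon genes 3 of 17 fell and 0 rose, against 2.96% lower of all symbols. This list overlaps that of the amino acid response, and PSAT1 counted among the falls of both. The path runs through PHGDH, PSAT1 and PSPH to serine, and SHMT2 passes serine carbon to mitochondrial folate. PHGDH had 42.9, 47.99 and 47.2 TPM in IDH2R172K libraries and 102, 97.5 and 104 TPM in Parental libraries (-1.12 ± 0.06). PSAT1 had 21.5, 27.9 and 28.02 TPM in IDH2R172K libraries and 83.1, 71.8 and 80.7 TPM in Parental libraries (-1.58 ± 0.10), and SHMT2 had 69.9, 57.6 and 51.6 TPM in IDH2R172K libraries and 180.2, 138 and 180.3 TPM in Parental libraries (-1.46 ± 0.12). PHGDH (-1.21 ± 0.05), PSAT1 (-1.27 ± 0.08) and SHMT2 (-1.45 ± 0.10) also fell relative to the other edited lines. The list's median relative to Parental cells was 0.08, with 4 higher and 5 lower at an unadjusted p under 0.05 in limma. PSPH was at 31.6, 33.8 and 28.8 TPM in IDH2R172K libraries and 42.8, 31.3 and 40.6 TPM in Parental libraries (-0.27 ± 0.12). Of 17 aminoacyl-tRNA synthetases, GARS (-1.13 ± 0.08) and WARS (-1.35 ± 0.17) fell.

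NRF2 targets and genes of glutathione and NADPH use fell in 6 of 23 and rose in 0, against 2.96% lower of all symbols, with a median difference of -0.31 (3 higher and 14 lower at an unadjusted p under 0.05 in limma). MGST1, given above, fell most. AKR1C1, an aldo-keto reductase, had 25.2, 27.4 and 31.4 TPM in IDH2R172K libraries and 109, 120.02 and 115 TPM in Parental libraries (-2.0 ± 0.08). Malic enzyme ME1, which makes cytosolic NADPH, had 28.9, 31.1 and 32.4 TPM in IDH2R172K libraries and 81.4, 84.8 and 81.5 TPM in Parental libraries (-1.40 ± 0.06). The quinone reductase NQO1 had 26.8, 24.6 and 23.2 TPM in IDH2R172K libraries and 56.4, 53.4 and 58.6 TPM in Parental libraries (-1.15 ± 0.08), and haem oxygenase HMOX1 fell as well (-1.03 ± 0.11), a call lost without Parental replicate 1. SLC7A11, given above, was the last of the 6. Relative to the other edited lines 5 of the 23 fell and 0 rose, against 2.26% lower of all symbols. The antioxidant response letters TGACNNNGC occurred in 13.3% of all windows and in 7 of 24 windows of this list (29.2%). Counted by gene, 6 of the 16 list members with a window held them, and 2 of the 4 fallen members among these 16. The ME1 promoter is shown because its match lies before the start site, at position -137, on the minus strand at chr6:83431052-83431301.
ME1: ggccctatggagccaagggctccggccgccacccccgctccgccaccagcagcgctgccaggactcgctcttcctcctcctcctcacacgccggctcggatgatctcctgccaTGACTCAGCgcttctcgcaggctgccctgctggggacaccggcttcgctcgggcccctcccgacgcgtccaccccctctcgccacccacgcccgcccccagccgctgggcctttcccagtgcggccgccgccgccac

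**Figure D3:**
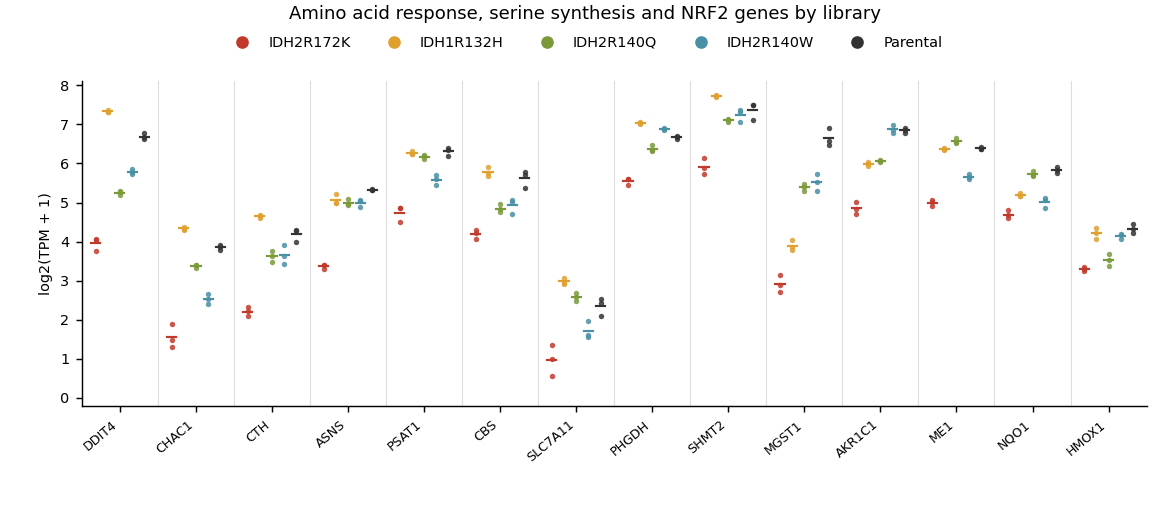
Expression on the log2(TPM + 1) scale (vertical axis) of the fallen genes of amino acid response, serine synthesis and NRF2 lists, with 1 point per library and a bar at each line's mean. IDH2R172K libraries lay below the Parental libraries in all 14 genes, and for ASNS the other edited lines averaged 32.4, 30.8 and 30.99 TPM, against 9.37 TPM in IDH2R172K and 39.3 TPM in Parental cells.

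Enzymes that the product of mutant IDH2 is known to inhibit were tested at the level of their RNA. For scale, 6.36% of all symbols rose and 2.96% fell relative to Parental cells. Of 32 genes for 2-oxoglutarate dioxygenases, limma called 0 in either direction, with 10 higher and 7 lower at an unadjusted p under 0.05. Their median was 0.15, and their differences ran from -0.91 to 0.76. Over all settings 0 to 1 of them were called higher and 0 to 3 lower. Of 11 DNA methylation genes, the demethylation enzyme TET3 rose, at 15.1, 18.4 and 17.3 TPM in IDH2R172K libraries and 9.74, 3.74 and 7.68 TPM in Parental libraries (1.23 ± 0.28). This call was lost without Parental replicate 2. TET2 had 4.30, 4.39 and 4.57 TPM in IDH2R172K libraries and 3.38, 2.11 and 4 TPM in Parental libraries (0.41 ± 0.22). In the list of isocitrate dehydrogenases and 2-hydroxyglutarate enzymes the median was -0.57, and of 10 members PHGDH was the 1 called. Of 27 genes of the TCA cycle and glutamine use, SUCLA2, a succinyl-CoA ligase subunit on chromosome 13, fell (-1.28 ± 0.11).

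Few proliferation genes were called, beside 6.36% higher and 2.96% lower of all symbols. Of 35 S phase and replication genes limma called 0 (16 higher and 3 lower at an unadjusted p under 0.05), and of 39 mitosis genes 0 (13 higher and 5 lower). MKI67, a proliferation marker, had 122, 127 and 123 TPM in IDH2R172K libraries and 79.5, 41.7 and 70.7 TPM in Parental libraries (0.99 ± 0.19). It was 1.11 ± 0.16 above the mean of the other edited lines. MYCN was the 1 of 25 genes in the MYC list to rise, at 18.8, 20.1 and 20.9 TPM in IDH2R172K libraries and 0.65, 0.62 and 0.45 TPM in Parental libraries (3.74 ± 0.12, limma adjusted p = 7.34e-11). MYC had 336, 330.1 and 325 TPM in IDH2R172K libraries and 446, 407 and 440.4 TPM in Parental libraries (-0.38 ± 0.05). Of 74 cytosolic ribosomal protein genes, RPS6 (-1.50 ± 0.11) and RPS27A (-1.12 ± 0.12) fell, against 2.96% lower of all symbols. The RPS27A call was lost without Parental replicate 2, and the list's falls counted 1 to 4 over all settings. The list's median was -0.25. RPS6 had 1532, 1560.2 and 1529 TPM in IDH2R172K libraries and 3763, 5327 and 4097 TPM in Parental libraries, and it averaged 3148, 2908 and 4478 TPM in the other edited lines. Of 39 histone genes 7 rose and 0 fell relative to Parental cells (4 under median-ratio scaling and 5 without Parental replicate 2), and 6 rose relative to the other edited lines. Of all symbols, 6.36% rose relative to Parental cells and 2.51% relative to the other edited lines. The linker histone HIST1H1C had 114, 110.2 and 114 TPM in IDH2R172K libraries and 42.5, 59.7 and 43.6 TPM in Parental libraries (1.21 ± 0.15). Most histone transcripts lack a poly(A) tail, so poly(A) selection measures a part of them.

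Targets of the GM-CSF path were followed because the medium changed with the genotype. STAT5 is the main transcription factor downstream of the GM-CSF receptor, and CISH, PIM1 and SOCS genes are its usual feedback targets. Of 23 genes of this list 1 rose and 1 fell, against 6.36% higher and 2.96% lower of all symbols. At an unadjusted p under 0.05 in limma, 5 were higher and 8 lower. The list's median was 0.00, and that of all symbols 0.13. The dual phosphatase DUSP4 had 3.97, 4.53 and 3.81 TPM in IDH2R172K libraries and 0.33, 0.33 and 0.39 TPM in Parental libraries (1.92 ± 0.13), and the cytokine LIF had 3.84, 4.24 and 4.31 TPM in IDH2R172K libraries and 14.7, 9.45 and 11.7 TPM in Parental libraries (-1.32 ± 0.17). CISH had 49.05, 49.8 and 48.8 TPM in IDH2R172K libraries and 52.3, 47.2 and 48.1 TPM in Parental libraries (0.00 ± 0.07), and PIM1 had 187, 178 and 189 TPM in IDH2R172K libraries and 267, 215 and 258 TPM in Parental libraries (-0.41 ± 0.08). CSF2, the gene of GM-CSF itself, had 10.5, 9.17 and 9.20 TPM in IDH2R172K libraries and 5.30, 5.09 and 4.60 TPM in Parental libraries (0.83 ± 0.12, below 2-fold). CSF2 was 1.32 ± 0.10 above the mean of the other edited lines. Those lines averaged 1.35, 1.89 and 10.4 TPM in IDH1R132H, IDH2R140Q and IDH2R140W, so CSF2 did not exceed its IDH2R140W level. CSF1, the macrophage growth factor, fell, with 7.16, 10.02 and 7.35 TPM in IDH2R172K libraries and 24.03, 16.6 and 19.4 TPM in Parental libraries (-1.19 ± 0.16).

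Matrix, adhesion and protease genes rose in 12 of 38 and fell in 0, against 6.36% higher of all symbols, with a median difference of 0.59. CD44, the hyaluronan receptor, was the most abundant of them, with 929, 904 and 909 TPM in IDH2R172K libraries and 222, 149.9 and 212 TPM in Parental libraries (2.25 ± 0.14). Others among the largest rises were those of the gelatinase MMP2, with 6.45, 7.89 and 6.84 TPM in IDH2R172K libraries and 0.45, 0 and 0 TPM in Parental libraries (2.83 ± 0.18), the protease inhibitor SERPINE2 (2.75 ± 0.15) and the gelatinase MMP9 (2.45 ± 0.11). In BMP and TGF-beta signalling 7 of 20 rose and 0 fell, among them BMPER, the binding protein LTBP1 (2.06 ± 0.14) and BMP6 (1.78 ± 0.13). ID2, an inhibitor of helix-loop-helix factors, had 124, 105 and 119.7 TPM in IDH2R172K libraries and 37.2, 38.1 and 38.04 TPM in Parental libraries (1.59 ± 0.09). The secreted ligand WNT11 had 389, 367 and 392.1 TPM in IDH2R172K libraries and 95.4, 82.3 and 92.2 TPM in Parental libraries (2.08 ± 0.08), whereas its relative WNT5B had 5.12, 5.18 and 7.94 TPM in IDH2R172K libraries and 39.7, 41.2 and 42.1 TPM in Parental libraries (-2.59 ± 0.13). Relative to the other edited lines WNT11 differed by 1.86 ± 0.06 and WNT5B by -1.47 ± 0.11. In all, 3 of 23 WNT and NOTCH genes rose and 2 fell, against 6.36% higher and 2.96% lower of all symbols.

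Surface and drug transport genes rose in 7 of 16 and fell in 1, against 6.36% higher and 2.96% lower of all symbols. The checkpoint receptor HAVCR2 had 6.24, 8.08 and 10.5 TPM in IDH2R172K libraries and 0.66, 0.76 and 0.87 TPM in Parental libraries (2.37 ± 0.17). ABCB1, the P-glycoprotein drug pump, had 31.9, 33.6 and 26.97 TPM in IDH2R172K libraries and 13.2, 8.06 and 9.16 TPM in Parental libraries (1.53 ± 0.19), and the other edited lines held 35.2, 29.4 and 21.8 TPM. CD52 rose relative to Parental cells (1.30 ± 0.09) and by 2.79 ± 0.07 relative to the other edited lines, and CD53, a tetraspanin of leukocytes, fell (-1.05 ± 0.09), a call lost without IDH2R172K replicate 3 or Parental replicate 3. Of 16 chemokine genes CCL2, a monocyte attractant, rose besides CCR3, at 22.7, 21.4 and 24.8 TPM in IDH2R172K libraries and 3.70, 2.23 and 1.96 TPM in Parental libraries (2.75 ± 0.17). IL1B had 208, 205 and 210.4 TPM in IDH2R172K libraries and 101, 97.7 and 93.4 TPM in Parental libraries (1.08 ± 0.06), a call lost under median-ratio scaling and quantile normalisation. The metallothionein MT1G, a metal-binding protein, fell to 0.58, 0.44 and 1.03 TPM in IDH2R172K libraries, against 4.94, 8.12 and 8.53 TPM in Parental libraries (-2.27 ± 0.19).

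**Figure D4:**
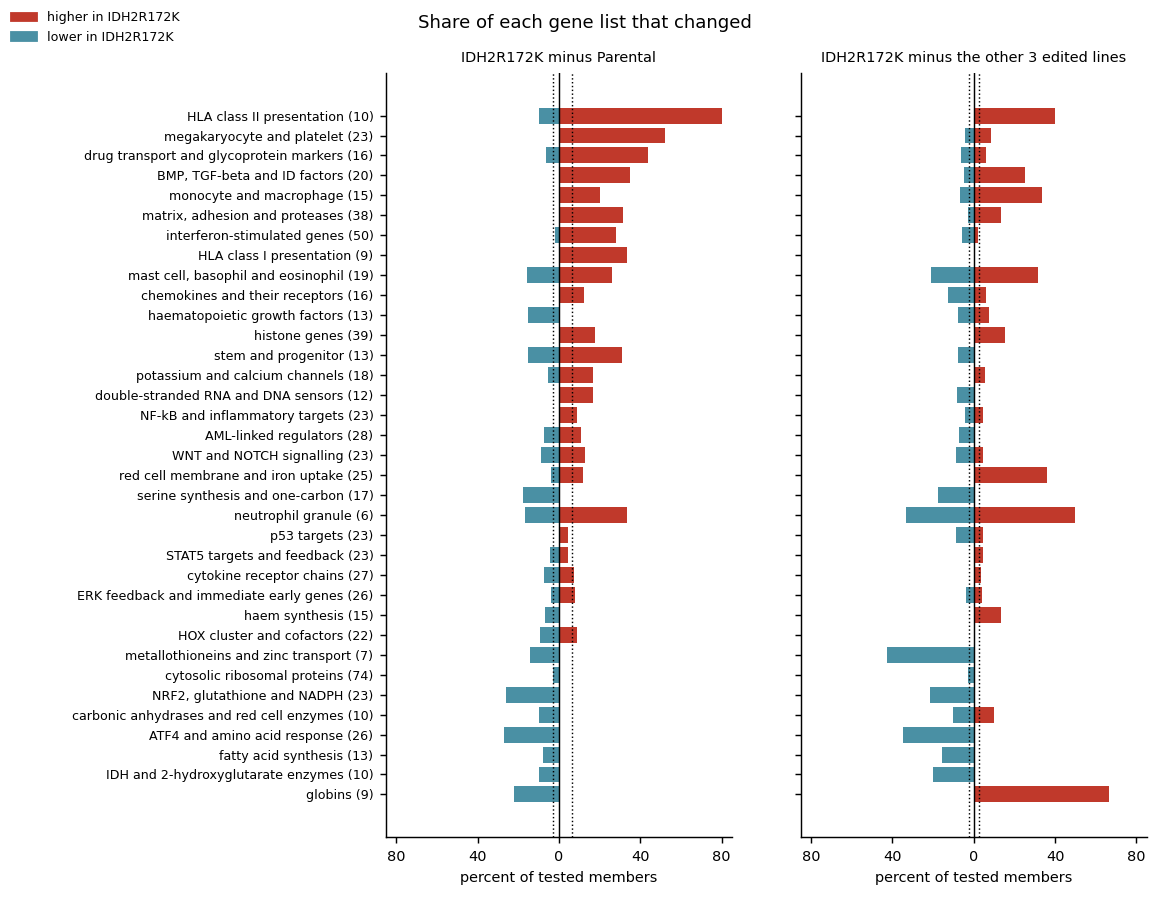
Percent of the tested members (number in brackets) of each gene list called higher (right of 0) or lower (left of 0) in IDH2R172K, relative to Parental cells (left panel) and to the mean of the other 3 edited lines (right panel), with dotted lines at the percent of all symbols called in each direction. The bars for HLA class II genes (8 of 10) and megakaryocyte genes (12 of 23) reach farthest right relative to Parental cells, and that for globins (6 of 9) relative to the other edited lines.

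Genes of chromosome 19 named ZNF with a number, most of which encode zinc finger proteins, were higher. Of 208 tested, 100 rose (48.1%) and 0 fell relative to Parental cells, with a median difference of 0.97, and the rises counted 85 under median-ratio scaling and 94 without Parental replicate 2. Of 185 ZNF genes on other chromosomes, 11 rose (5.95%) and 0 fell, with a median of 0.37, and of 811 other genes on chromosome 19, 78 rose and 17 fell, with a median of 0.22. Per library, the chromosome 19 ZNF genes lay a median 0.91, 1.00 and 0.98 above the Parental mean in IDH2R172K libraries, against 0.06, -0.15 and 0.07 in Parental libraries. The other edited lines were also above Parental for these genes, by 0.83 in IDH1R132H, 0.86 in IDH2R140Q and 0.50 in IDH2R140W, and 5 of the 208 were called higher in IDH2R172K relative to those lines. Their levels were low, at a median of 7.62 TPM in IDH2R172K and 3.13 TPM in Parental cells. Among the 146 with at least 5 TPM in 3 libraries the median difference was 0.99. ZNF98 had 12.7, 13.8 and 11.9 TPM in IDH2R172K libraries and 0.48, 0.32 and 0 TPM in Parental libraries (3.46 ± 0.23). ZNF439 had 13.7, 16.01 and 16.5 TPM in IDH2R172K libraries and 0.41, 0.50 and 0.97 TPM in Parental libraries (3.34 ± 0.18), and ZNF91 had 18.1, 19.5 and 23.9 TPM in IDH2R172K libraries and 3.66, 3.58 and 4.03 TPM in Parental libraries (2.17 ± 0.17). Many of these genes are close paralogs in clusters, so the split of reads between neighbours is uncertain.

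Stretches of neighbouring genes had low medians in IDH2R172K cells on chromosomes 2, 7, 8, 9 and 13. They were found as runs of 25 consecutive tested protein-coding genes with a median difference of -0.5 or below, overlapping runs being joined, so their low medians are a description and no test. The longest, from NBEA to COMMD6 on chromosome 13 (34942287 to 75549439, hg38), held 85 genes, of which 17 fell and 1 rose, with a median of -0.65, and 25 fell relative to the other edited lines, with a median of -0.84. ITM2B, an integral membrane protein chosen from this stretch for its level after values were seen, had 85.1, 89.1 and 85.96 TPM in IDH2R172K libraries and 197, 199.7 and 203 TPM in Parental libraries (-1.20 ± 0.05). SUGT1, a co-chaperone chosen likewise, had 30.7, 29.7 and 31.6 TPM in IDH2R172K libraries and 75.5, 83.5 and 79.8 TPM in Parental libraries (-1.35 ± 0.07), and EPSTI1 and SUCLA2, named above, lie there as well. The largest falls in it were those of SPRYD7 (-1.49 ± 0.19), VWA8 (-1.46 ± 0.13) and MRPS31, a mitochondrial ribosomal protein (-1.40 ± 0.14). Library medians were -0.72, -0.71 and -0.61 in IDH2R172K libraries, against 0.08, -0.05 and 0.01 in Parental libraries. The same genes had medians of 0.11 in IDH1R132H, 0.28 in IDH2R140Q and -0.01 in IDH2R140W, all minus Parental.

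The stretch from CBWD1 to HAUS6 on chromosome 9 (121038 to 19103119) held 31 genes, of which 7 fell, with a median of -0.50, and 11 fell relative to the other edited lines, with a median of -0.81. AK3, a mitochondrial adenylate kinase there, had 9.10, 11.7 and 11.3 TPM in IDH2R172K libraries and 27.3, 23.99 and 24.6 TPM in Parental libraries (-1.17 ± 0.09). RCL1, a ribosome assembly factor, had 19.4, 20.96 and 21.9 TPM in IDH2R172K libraries and 49.3, 43.8 and 46.95 TPM in Parental libraries (-1.13 ± 0.08). On chromosome 2, from MCFD2 to PEX13 (46901870 to 61051990), 6 of 30 fell relative to Parental cells and 9 relative to the other edited lines, among them PNPT1, at 18.8, 21.3 and 21.8 TPM in IDH2R172K libraries and 49.5, 45.9 and 46.9 TPM in Parental libraries (-1.17 ± 0.10). BCL11A and RPS27A, given above, lie in the same stretch. The stretch from SP4 to AVL9 on chromosome 7, which holds the HOXA cluster, was low in every edited line, with medians of -0.35 in IDH1R132H, -0.35 in IDH2R140Q and -0.54 in IDH2R140W minus Parental, and -0.02 for IDH2R172K minus those lines. HOXA11, a homeobox factor of that cluster, had 3.07, 1.89 and 2.63 TPM in IDH2R172K libraries and 8.73, 9.07 and 9.82 TPM in Parental libraries (-1.54 ± 0.16). CA2, given above, lies in the stretch of chromosome 8 from IL7 to TMEM64, of which 5 of 27 genes fell. Of all protein-coding genes on chromosomes 1 to 22 and X, 3.08% fell, with a median difference of 0.14.

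**Figure D5:**
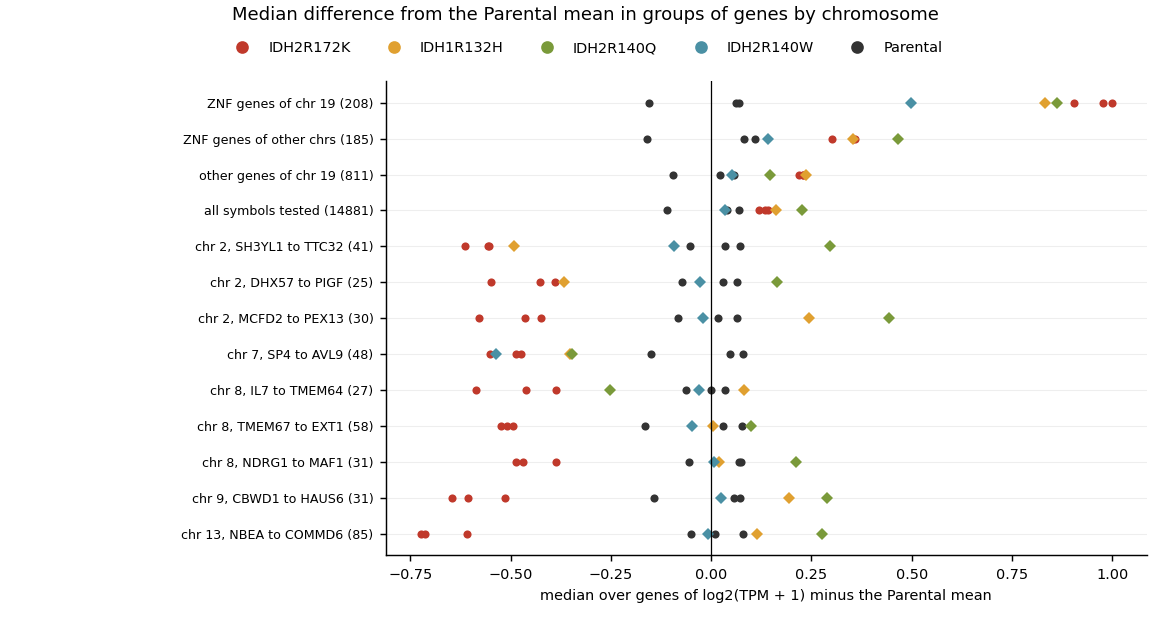
Median over the genes of each group of the log2(TPM + 1) value minus the Parental mean (horizontal axis), for ZNF genes of chromosome 19 and the low stretches, with the number of genes in brackets. Circles are single IDH2R172K and Parental libraries and diamonds are means of the other edited lines; the chromosome 13 stretch lay at -0.61 to -0.72 in IDH2R172K libraries and between -0.05 and 0.08 in Parental libraries, whereas the chromosome 19 ZNF genes lay above Parental in all 4 edited lines.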

How the data were processed

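Poly(A) RNA of 15 TF-1 libraries was measured in 5 groups of 3, taken from the genotype labels. The deposited values are TPM, in a single table by gene symbol. STAR 2.7.3, HTSeq, RSEM, DESeq2 and hg38 are named, without roles, in the submitters' processing notes. For the annotation and strand setting nothing is given in the sources used here. TPM keeps no read number, so the depth per library and the precision it gives are unknown. From 63568 rows, values sharing a symbol were summed into 56624 symbols, 6 date-like rows that could be more than 1 gene were left out, and the 14881 that reached 1 TPM in 3 or more libraries were tested, 224 of them from more than 1 row. GENCODE release 29 gave positions for 12513 (84.1%).

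Values were log2(TPM + 1), with a pseudocount of 1, fitted with limma 3.58.1 in R 4.3.3 over all 15 libraries, one mean per group, with an intensity trend. p-values were adjusted over all symbols by Benjamini-Hochberg. Named genes were the 12 largest rises and falls against Parental, and the 8 against the other edited lines, among called symbols of 1 row whose higher mean reached 10 TPM and whose groups kept apart, the 4 largest changes per list with other members beside their counts, and the largest changes per chromosome stretch. Of 54 gene lists, those whose members bear on the comparison are described. A few genes are not reported here. Members and lists were chosen with earlier results of these data known. Pseudocount, filter, scaling, trend, library weights, a replicate block and each left-out library were alternatives.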

Additional observations from a re-analysis of the deposited data

Results flagged for a closer look

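These 16 symbols were called in IDH2R172K relative to Parental cells and called the other way in at least 2 of the other 3 edited lines relative to Parental. They were also called in the limma comparison of IDH2R172K with those lines, whose direction the first conditions nearly fix, so it is no separate test and its values are given as a description. They come from 1 row each and average at least 10 TPM in the higher group. For HSH2D and AC004791.2 the opposite calls compare values near 0. HSH2D averaged 1.89 TPM in Parental libraries, and 0.06 and 0.26 TPM in IDH1R132H and IDH2R140Q, where it was called lower. AC004791.2 had 1.56, 3.13 and 0 TPM in Parental libraries and averaged 0.087 and 0.097 TPM in the same lines (limma adjusted p = 0.039 and 0.041).

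Of the 13 higher ones, HSH2D lay 6.22 above the other edited lines on the log2 scale, PTPRCAP 3.64, CD52 2.79 and TYROBP 2.09. PTPRCAP averaged 63.9 ± 2.11 TPM in IDH2R172K libraries and 25.2 ± 1.36 TPM in Parental libraries (SD, n = 3), and 1.90, 1.03 and 23.5 TPM in IDH1R132H, IDH2R140Q and IDH2R140W. CD52, a glycoprotein of lymphocytes and monocytes, averaged 212 ± 13.1 TPM in IDH2R172K and 85.5 ± 4.31 TPM in Parental libraries, and 20.9, 24.1 and 52.6 TPM in the same 3 lines. CLCA1, a secreted regulator of chloride channels, differed by 3.60 and was lower than Parental in all 3 of those lines.

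PLK2, a polo-like kinase induced by p53, differed by 3.26, with 299.8 ± 8.97 TPM in IDH2R172K, 108 ± 17.99 TPM in Parental and 83.4, 18.6 and 18.1 TPM in the other edited lines. The linker histone HIST1H1C differed by 2.48 and was lower than Parental in all 3 other lines, the globin pseudogene HBBP1 by 3.19, the non-coding RNA CCDC26 by 3.57 and the phosphatase PTPN5 by 1.86. The clone-named AC004791.2 (3.80), RP3-460G2.2 (3.39) and FO393434.1 (2.17) were the other higher ones. Some of these rises were shared with 1 other edited line. Relative to Parental, PTPN5 was called higher in IDH2R140W too (11.4 TPM, 1.03), and RP3-460G2.2 in IDH1R132H (28.4 TPM, 1.08). HBBP1 in IDH2R140W (54.5 TPM, 0.82) and TYROBP in IDH1R132H (387 TPM, 0.82) were also above Parental, short of 2-fold.

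Lower in IDH2R172K were LRRN3 (-3.11), NCK2 (-3.04) and STXBP6 (-2.78). LRRN3 was above Parental in all 3 other edited lines. STXBP6 averaged 3.18 ± 0.51 TPM in IDH2R172K libraries, 11.4 ± 3.50 TPM in Parental libraries and 26.6, 38.9 and 20.1 TPM in IDH1R132H, IDH2R140Q and IDH2R140W. No cause was tested for any of the 16.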

How the results depend on the processing

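Under the alternatives tried, no count of calls against Parental moved by over 1.5 times except with a pseudocount of 0.1, which gave 692 lower symbols against Parental in place of 440, and 1239 changed, 689 of them lower, against the other edited lines, in place of 711 and 337. A smaller pseudocount enlarges the differences of low genes by construction. Leaving out each library in turn gave 846 to 1104 higher and 440 to 479 lower against Parental, with the fewest higher calls without Parental replicate 2 and the most without Parental replicate 1. Replicate numbers did not pair the libraries: same-numbered deviations correlated at -0.017, -0.042 and -0.008, and a replicate block gave 942 higher and 441 lower. IDH2 stayed between -0.87 and -0.67 and IDH1 between -1.04 and -0.84 on the log2 scale. Over all settings the rises against Parental counted 4 to 10 histone, 3 to 8 HLA class II, 1 to 4 HLA class I, 3 to 6 monocyte, 5 to 8 mast cell and 2 to 6 chemokine genes, while the falls in the ATF4 list counted 7 throughout. Of 300 single-gene results 253 kept their call throughout, 47 lost it under some setting and 0 changed sign. The unknown depth limits genes near 1 TPM, and differences that miss a call are not shown to be absent.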

Other observations

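Other gene lists held few calls, given here as log2 differences between IDH2R172K and Parental cells. Of all symbols, 6.36% were higher and 2.96% lower. Of 22 HOX and cofactor genes 2 rose and 2 fell relative to Parental cells, with MEIS1 (1.75) and HOXA11 (-1.54) among them. Of 28 AML-linked regulators 3 rose, ERG (1.36), FLI1 (1.06) and RUNX1 (1.78), and 2 fell, GFI1 (-1.42) and TRIB2 (-1.004). The FLI1 call was lost without Parental replicate 2 and under median-ratio scaling, quantile normalisation and library weights. That of TRIB2 was lost without IDH2R172K replicate 1 or 2 or Parental replicate 1 or 3. Of 18 potassium and calcium channel genes 3 rose, RYR3 (2.16), KCNQ1 (1.29) and TRPM4 (1.16), and KCNH2 fell. Of 27 cytokine receptor chains CSF1R and IL10RA (1.73) rose and KIT and TNFRSF1B (-1.16) fell. Of 27 BCL2 family and death receptor genes 1 rose and 1 fell, of 26 ERK feedback and immediate early genes 2 rose and 1 fell, and of 23 NF-kB targets CD40 and IL1B rose, the IL1B call being lost under median-ratio scaling and quantile normalisation. Of 10 carbonic anhydrase and red cell enzyme genes CA2 fell, of 7 metallothionein and zinc transport genes MT1G fell, and of 13 haematopoietic growth factors LIF and CSF1 fell. Of 2 fibroblast and epithelial markers tested limma called 0, with 0 higher and 1 lower at an unadjusted p under 0.05.

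Metabolic lists held few called falls, beside 2.96% of all symbols lower. Those that fell were 1 of 23 cholesterol genes, in some settings 0, ME1 of 13 fatty acid synthesis genes, PFKFB4 (-1.09) of 28 glycolysis and hypoxia genes and NDUFB6 (-1.39) of 66 nuclear respiratory chain genes. PFKFB4 lost its call without IDH2R172K replicate 3. At an unadjusted p under 0.05 in limma, 3 cholesterol genes were higher and 12 lower, and 0 fatty acid synthesis genes were higher and 8 lower. The medians of these lists were -0.305 and -0.449, against 0.13 for all symbols. Glycolysis and hypoxia genes counted 7 higher and 8 lower at that threshold, and respiratory chain genes 8 higher and 15 lower. In limma 0 were called among 18 fatty acid oxidation, 19 branched-chain amino acid and 13 mitochondrially encoded genes. At an unadjusted p under 0.05, 4 fatty acid oxidation genes were higher and 6 lower, 1 branched-chain amino acid gene was higher and 8 lower, and 1 mitochondrially encoded gene was higher and 3 lower. Of 32 recombination and crosslink repair genes FANCF rose (1.06), and of 23 p53 targets PLK2 rose (1.47). The FANCF call was lost under median-ratio scaling, quantile normalisation and library weights, and without Parental replicate 1. The fetal globin programme, 5 genes tested, held 0 calls in limma, with 2 higher and 1 lower at an unadjusted p under 0.05.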
